A study of Mus musculus with 2 samples.

Results

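Cholesterol is almost insoluble in water, so cells move it between membranes with carrier proteins and at contact sites, where membranes of different organelles lie close together. The genes described here encode those carriers and anchors: the Niemann-Pick type C proteins that let cholesterol leave lysosomes, the oxysterol-binding proteins (ORPs), the START domain proteins, the GRAM domain proteins and the VAP anchors. They were taken from the table by symbol. The rule kept Osbp and every Osbpl, Stard and Gramd gene with a number, and added Star, Npc1, Npc2, Npc1l1, Vapa, Vapb and Scarb2. It gave 33 of the 50608 rows, of which 4 belong to the lysosomal and Niemann-Pick group, 11 to the ORPs, 10 to the START group, 6 to the GRAM group and 2 to the VAP anchors.

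RNA was sequenced from peritoneal macrophages, the phagocytes of the abdominal cavity, in 1 library from cells given GW3965 and 1 library from cells given the solvent DMSO. GW3965 activates the liver X receptors (LXRs), nuclear receptors that sense oxidised cholesterol and switch on genes of cholesterol export. For both libraries the labels give the strain C57BL6J, males and females pooled, and E15.5 as the stage. Whether that embryonic stage holds for these macrophages could not be checked here. Both were made from total RNA (Qiagen miRNAeasy micro kit) with Illumina's TruSeq RNA kit, and no label says from how many animals or cultures. The labels read here state neither dose nor time, and the libraries differ by the LXR agonist. The column read as GW3965 shares only its opening letters with that sample's description, so each statement on GW3965 rests on that match. With 1 library per group there was no replicate check, no test and no p-value.

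LXRs and sterol carriers belong to the same circuit in macrophages. Lipoprotein cholesterol is released in lysosomes, bound by NPC2, handed to NPC1 and passed on to the plasma membrane and the endoplasmic reticulum (ER). Aster proteins, the products of Gramd1a, Gramd1b and Gramd1c, sit in the ER and carry excess cholesterol there from the plasma membrane, and Gramd1b is a known LXR target in the mouse. Sterols that reach the ER restrain new synthesis, and their oxidised forms activate LXR.

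The libraries held a recovered depth of 75287120 reads for GW3965 and 101866062 reads for DMSO. Values are FPKM, fragments per kilobase of gene scaled to depth, so levels of different genes can be set side by side. Differences are given as ratios of FPKM with a 95% counting interval from whole reads. They are also given as the log2 of (GW3965 FPKM + 1)/(DMSO FPKM + 1), which understates the change of low genes. A row counted as measured at a mean of at least 1 FPKM and as higher or lower at 1.5-fold on that log2 scale. The 11889 measured rows had a median log2 ratio of 0.24 and a median ratio of 1.25, and a log2 ratio less that median is called centred. The library labelled GW3965 had all 6 LXR targets checked above the limit on both scales, with Abca1, the cholesterol exporter, at 261 FPKM in GW3965 and 19.9 FPKM in DMSO. Macrophage genes were abundant, with Lyz2, the lysozyme of phagocytes, at 4822 FPKM in GW3965 and 4053 FPKM in DMSO. All 8 macrophage markers were measured, with 1 of them past the limit, Mertk, at 13.9 FPKM in GW3965 and 6.79 FPKM in DMSO. The 5 markers of large peritoneal macrophages, Gata6 among them, were at or below 0.857 FPKM in both libraries.

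Of the 33 members 23 were measured, and only Gramd1b among them passed the limit. It was higher in GW3965 as deposited and after centring, and 0 members were lower on either scale. That is 4.35% of the measured members. Of all measured rows, 3.46% were higher as deposited and 1.38% after centring, while 0.0757% and 0.336% were lower, so a count of 1 is near the background and is not a result about the group. The median log2 ratio of the measured members was 0.27, or 0.02 after centring, beside 0.24 and 0 for all measured rows. As deposited 22 of the 23 had a positive ratio, as had 93.6% of all measured rows. After centring 15 were positive and 8 negative. These signs depend in part on the added 1. Npc2, Osbpl9, Stard4, Stard9 and Vapb were positive there, while their plain FPKM ratios lay below the median ratio of 1.25. No measured member differed the other way. The central 90% of measured rows ran from -0.27 to 0.28 on the centred scale and held 20 of the 23 members. Gramd1b and Scarb2 lay above that range and Gramd4 lay below it. By plain FPKM ratio the central 90% ran from 0.976 to 1.64. Scarb2, at 1.45, lay inside that range, and Gramd1b and Gramd4 lay outside it.

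**Figure D1:**
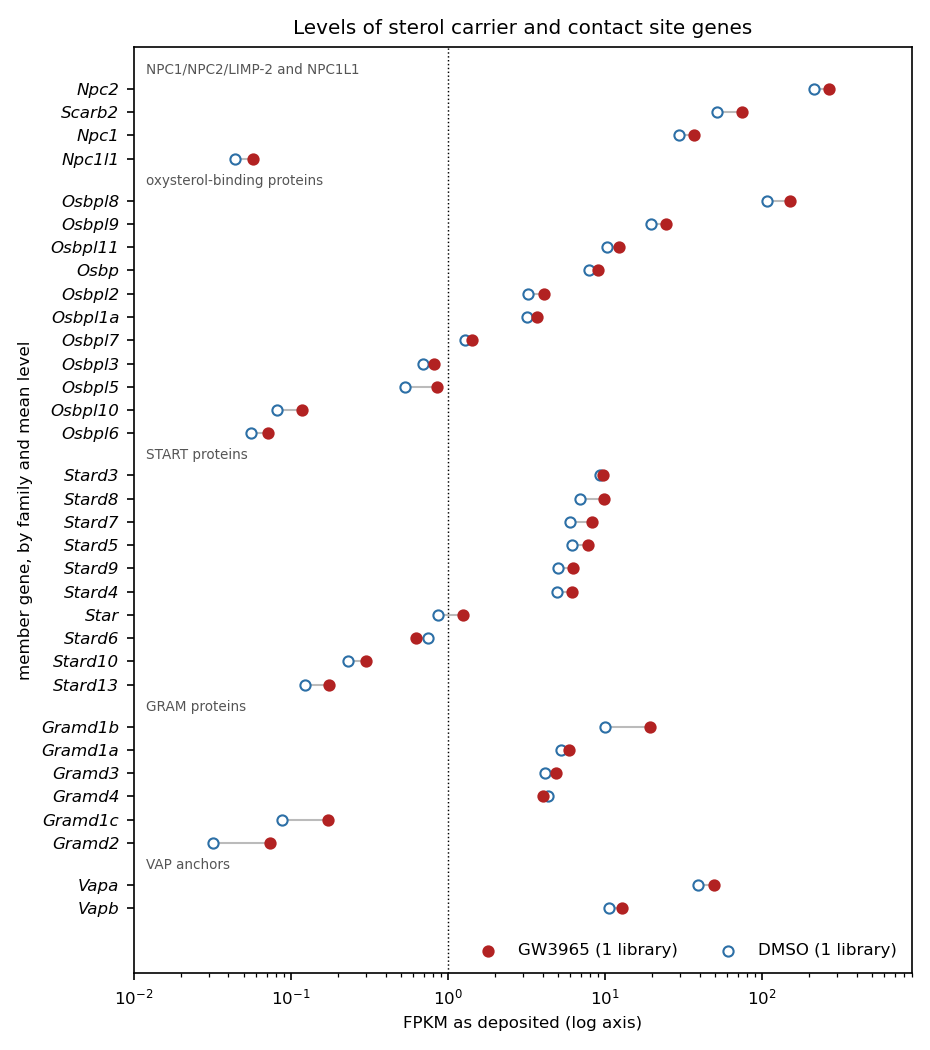
FPKM of each of the 33 members (log axis) in the GW3965 library (filled) and the DMSO library (open), 1 library each, grouped by family and ordered by mean level. The dotted line marks 1 FPKM; 31 members have the higher value in GW3965, and Stard6 and Gramd4 have the higher value in DMSO.

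**Figure D2:**
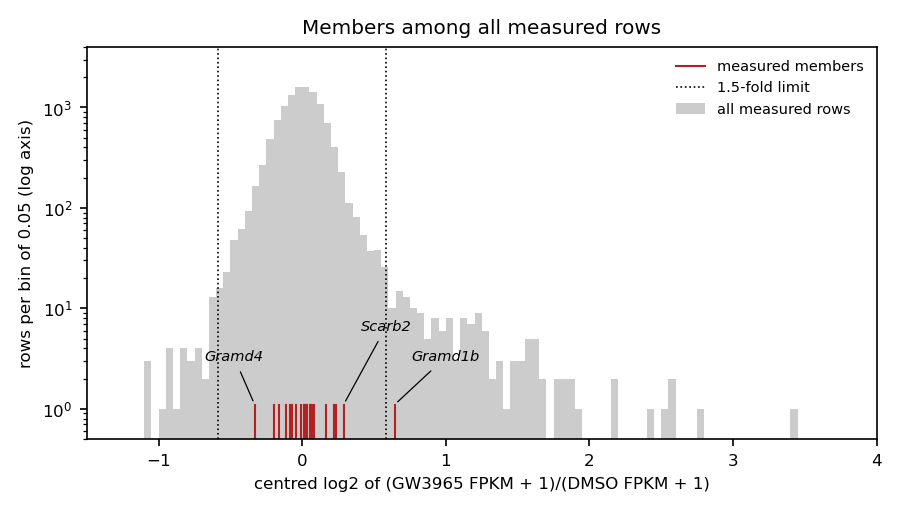
Rows per bin of centred log2 ratio (grey bars, log axis) for the 11889 measured rows, with the 23 measured members as red ticks and the 1.5-fold limit dotted. Members cluster around 0, and Gramd1b at 0.64 is the tick beyond the limit.

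Gramd1b encodes Aster-B and was the most abundant GRAM domain gene in both libraries. It lies on the minus strand of chromosome 9 at 40293233 to 40531383 (GRCm38) and is annotated as protein-coding. It had 19.3 FPKM in GW3965, from 14695 reads, and 10.0 FPKM in DMSO, from 10282 reads. It was higher in GW3965, at 1.93 times the DMSO level (1.89 to 1.98), and its log2 ratio was 0.89, or 0.64 when centred. By log2 ratio it stood at rank 148 of the 11889 measured rows, with 98.8% of them below it. For comparison, the ratio of Abca1 was 13.1 (12.9 to 13.3). Gramd1b overlaps 2 annotated antisense or intergenic noncoding genes in 1.13% and 0.834% of its exon bases.

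Gramd1a, which encodes the related Aster-A, had 5.85 FPKM in GW3965 and 5.24 FPKM in DMSO. The ratio was 1.12 (1.06 to 1.18), or -0.11 as a centred log2 ratio, within the limit. Within one library the ratio of both genes' levels is free of any scaling between libraries. Gramd1b stood at 3.31 times Gramd1a in GW3965 and at 1.91 times in DMSO, so the ratio of these ratios was 1.73 (counting interval 1.63 to 1.84). Gramd1c, the gene of Aster-C, was near silent at 0.171 FPKM in GW3965 and 0.0872 FPKM in DMSO, from 45 and 31 reads.

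The remaining GRAM genes did not pass the limit. Gramd3 had 4.90 FPKM in GW3965 and 4.12 FPKM in DMSO, a ratio of 1.19 (1.11 to 1.27). Gramd4, linked to cell death, had 4.02 FPKM in GW3965 and 4.33 FPKM in DMSO. Its ratio of 0.927 (0.872 to 0.986) was the lowest of the measured members, and its centred log2 ratio was -0.33, within the limit. Gramd2, whose product marks ER and plasma membrane contacts, had 0.0736 FPKM in GW3965 and 0.0320 FPKM in DMSO, from 34 and 20 reads.

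The makeup of the GRAM group differed between the libraries. Gramd1b held 56.3% of the group's summed FPKM in GW3965 and 42.0% in DMSO. Gramd1a held 17.0% in GW3965 and 22% in DMSO, and Gramd4 held 11.7% in GW3965 and 18.2% in DMSO. No gene of the lysosomal, ORP or START groups shifted its share of its own group by more than 3.95 percentage points, the size of the difference for Stard3.

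**Figure D3:**
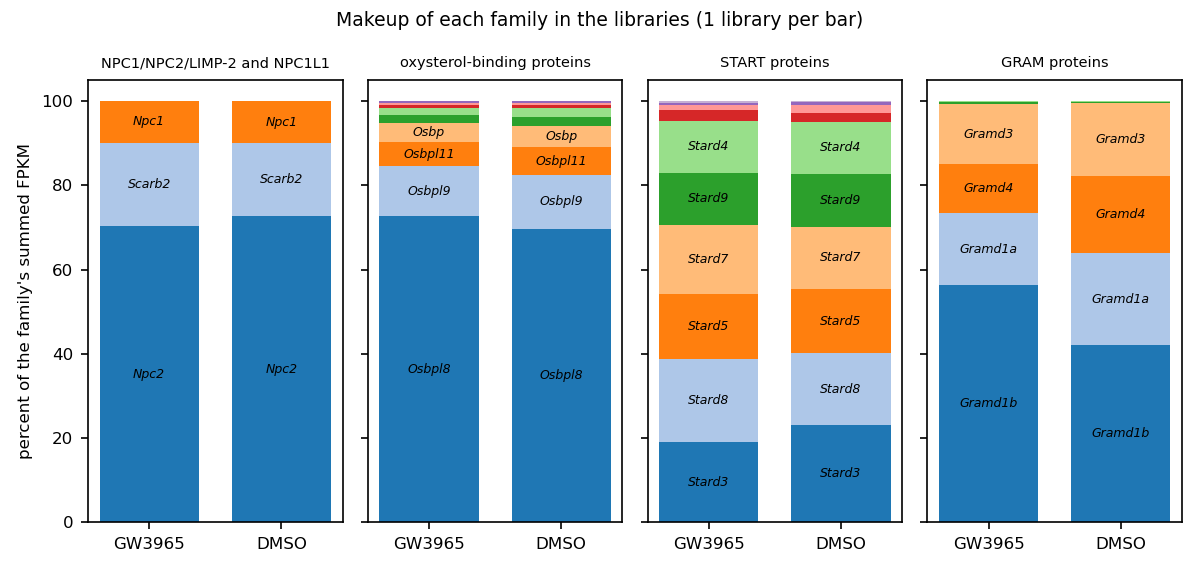
Stacked bars of each gene's percent of its group's summed FPKM in GW3965 (left bar) and DMSO (right bar), 1 library per bar, for the lysosomal, ORP, START and GRAM groups. Gramd1b takes 56.3% of the GRAM bar in GW3965 and 42.0% in DMSO, while the bars of the other 3 groups look much alike.

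Lysosomal export genes were among the most abundant members. Npc2, the soluble protein that binds cholesterol inside the lysosome, had the highest level of all 33, at 265 FPKM in GW3965 and 215 FPKM in DMSO. Its ratio was 1.23 (1.22 to 1.24), close to the median of all measured rows. Npc1, the membrane protein that takes cholesterol from NPC2, had 37.1 FPKM in GW3965 and 29.4 FPKM in DMSO, a ratio of 1.26 (1.24 to 1.28). Npc2 stood at 7.14 times Npc1 in GW3965 and at 7.31 times in DMSO, a ratio of ratios of 0.977 (0.960 to 0.994).

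Scarb2 encodes a lysosomal membrane protein that delivers beta-glucocerebrosidase to lysosomes. It had 74.5 FPKM in GW3965, from 37492 reads, and 51.3 FPKM in DMSO, from 34892 reads. The ratio was 1.45 (1.43 to 1.48) and the centred log2 ratio 0.29, below the limit of 1.5-fold. Relative to Npc1 its level ratio was 2.01 in GW3965 and 1.75 in DMSO, a ratio of ratios of 1.15 (1.13 to 1.18). Npc1l1, the intestinal cholesterol uptake protein blocked by ezetimibe, had 0.0569 FPKM in GW3965 and 0.0443 FPKM in DMSO. Those values came from 19 and 20 reads, and the interval of the ratio, 0.649 to 2.54, holds 1.

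Among the ORPs, which exchange sterols and phosphatidylserine for phosphoinositides between membranes, Osbpl8 far exceeded the rest. Its product ORP8 is anchored in the ER and acts at contacts with the plasma membrane. Osbpl8 had 151 FPKM in GW3965, from 80278 reads, and 108 FPKM in DMSO, from 77618 reads. It held 72.7% of the summed FPKM of the ORPs in GW3965 and 69.7% in DMSO. Its ratio was 1.40 (1.39 to 1.41) with a centred log2 ratio of 0.24, above 93.2% of measured rows yet below the limit. Osbpl5, whose product ORP5 shares that place and fold, had 0.855 FPKM in GW3965 and 0.531 FPKM in DMSO. Its ratio was 1.61 (1.36 to 1.90) from 315 and 265 reads, and it was not measured by the rule on the mean.

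Osbpl9, the next in level, had 24.6 FPKM in GW3965 and 19.7 FPKM in DMSO, a ratio of 1.24 (1.22 to 1.27). Osbpl11 had 12.3 FPKM in GW3965 and 10.2 FPKM in DMSO, a ratio of 1.2 (1.15 to 1.25). Both lay close to the median of all rows. Osbp, which carries cholesterol from the ER to the Golgi in exchange for phosphatidylinositol 4-phosphate, had 8.95 FPKM in GW3965 and 7.91 FPKM in DMSO. Its ratio of 1.13 (1.08 to 1.19) was below that median, and so were the intervals of Osbpl1a and Osbpl7.

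Osbpl1a, whose long form senses cholesterol on late endosomes, had 3.71 FPKM in GW3965 and 3.17 FPKM in DMSO. Osbpl2, which exchanges cholesterol with a phosphoinositide at the plasma membrane, had 4.05 FPKM in GW3965 and 3.21 FPKM in DMSO. Osbpl7 had 1.43 FPKM in GW3965 and 1.29 FPKM in DMSO, a ratio of 1.11 (0.996 to 1.23). No measured ORP passed the limit in either direction, and the median centred log2 ratio of the 7 measured was -0.01. Osbpl3, at 0.813 FPKM in GW3965 and 0.696 FPKM in DMSO, was just under the level that counts as measured. Osbpl10 and Osbpl6 were at most 0.118 FPKM in either library.

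START proteins hold 1 lipid molecule each in a closed pocket, and 7 of the 10 genes were measured. Stard3, a late endosomal protein that tethers those organelles to the ER through VAPs, had 9.63 FPKM in GW3965 and 9.28 FPKM in DMSO. Its ratio of 1.04 (0.988 to 1.09) lay under the median of all rows, with a centred log2 ratio of -0.20. Stard4, a soluble sterol carrier whose gene is controlled by SREBP-2 (the factor that induces cholesterol synthesis), had 6.19 FPKM in GW3965 and 4.97 FPKM in DMSO. Stard5, a related soluble sterol binder, had 7.74 FPKM in GW3965 and 6.12 FPKM in DMSO. Their ratios were 1.24 (1.18 to 1.32) for Stard4 and 1.26 (1.2 to 1.34) for Stard5, and both intervals hold the median ratio of all measured rows.

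Stard7 carries phosphatidylcholine to mitochondria rather than sterol. It had 8.28 FPKM in GW3965 and 5.97 FPKM in DMSO, a ratio of 1.39 (1.32 to 1.46). Stard8, a multidomain protein with a START domain, had 9.89 FPKM in GW3965 and 6.88 FPKM in DMSO, a ratio of 1.44 (1.37 to 1.5). Stard3 had the lowest ratio of the measured START genes, so a comparison with it gives the largest values. Against it the ratio of ratios was 1.34 (1.24 to 1.43) for Stard7 and 1.39 (1.30 to 1.48) for Stard8. Their centred log2 ratios, 0.17 and 0.22, stayed within the limit. Stard9, a kinesin with a START domain, had 6.28 FPKM in GW3965 and 5.05 FPKM in DMSO.

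Star, which feeds cholesterol to mitochondria for steroid synthesis, was barely measured, at 1.25 FPKM in GW3965 and 0.858 FPKM in DMSO. The ratio was 1.46 (1.27 to 1.68) from 422 and 392 reads. Cyp11a1, the enzyme that uses that cholesterol in steroid-making cells, was at 0.0973 FPKM in GW3965 and 0.0567 FPKM in DMSO. Stard6, known from testis, had 0.624 FPKM in GW3965 and 0.745 FPKM in DMSO, from 88 and 142 reads. Its ratio of 0.839 had an interval of 0.635 to 1.1 that holds 1. Stard10 and Stard13 were at most 0.303 FPKM in either library.

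VAPA and VAPB are the ER anchors that hold many ORPs and STARD3 by a short peptide motif. Vapa had 49.1 FPKM in GW3965 and 39.3 FPKM in DMSO, a ratio of 1.25 (1.22 to 1.28). Vapb had 12.9 FPKM in GW3965 and 10.6 FPKM in DMSO, a ratio of 1.21 (1.17 to 1.25). Vapa stood at 3.81 times Vapb in GW3965 and at 3.71 times in DMSO, and the interval of the ratio of ratios, 0.987 to 1.07, holds 1.

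**Figure D4:**
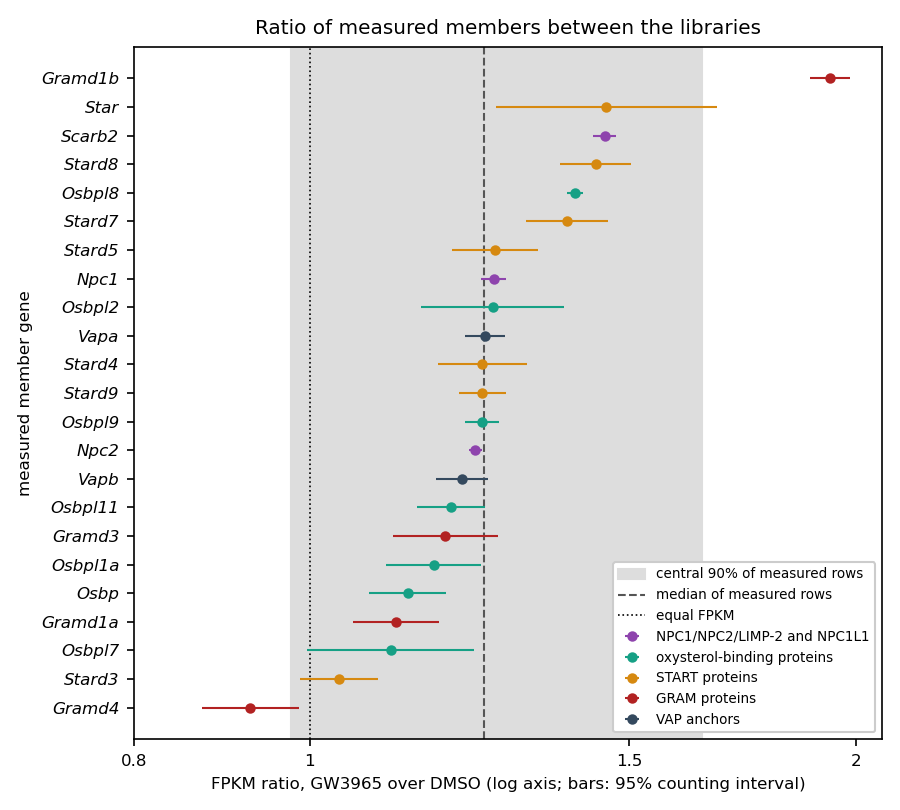
FPKM ratio of GW3965 over DMSO (log axis) for the 23 measured members, with bars for the 95% counting interval, a dashed line at the median ratio of all measured rows (1.25), a grey band for their central 90% and a dotted line at equal FPKM. Gramd1b at 1.93 lies right of the band and Gramd4 at 0.927 left of it.

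Set against the median ratio of all measured rows, the counting intervals of 6 measured members lay wholly above it. These were Gramd1b, Star, Scarb2, Stard8, Osbpl8 and Stard7. Intervals of 7 members lay wholly below it, namely Gramd4, Stard3, Osbpl7, Gramd1a, Osbp, Osbpl1a and Npc2, and those of 10 held it. These intervals hold the error of counting reads and not the spread between cultures or mice. At this depth they can be narrow, as for Npc2 at 1.22 to 1.24 under a median of 1.25. The share of all measured rows with intervals off the median was not computed, so these counts are not a result about the group. The 10 members that were not measured had ratios between 0.839 and 2.3, from 19 to 577 reads each in GW3965 and 20 to 668 reads each in DMSO.

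The promoters of Osbpl8, Scarb2 and Stard8 are shown because these genes had the highest centred log2 ratios after Gramd1b, with the Osbpl5 window that holds a motif match, of its 3 windows, as that of the paralogue of Osbpl8. RefSeq promoter windows (GRCm38.p6), 36 in all, were found for 25 of the 33 members. No window was available for Gramd1b, Gramd3, Npc1, Osbpl1a, Osbpl10, Star, Stard4 or Stard6, so no motif was searched in them. Each is the 250 bases before an annotated start on the gene's strand, with motif matches in capitals. The Stard8 window lies inside the gene, which spans 99003248 to 99074728 (GENCODE M21). The Scarb2 window also lies inside its gene, which spans 92441314 to 92506833. Both thus stand before a start that is not the outermost of the gene.
Osbpl8, chr10:111164552-111164801, plus strand: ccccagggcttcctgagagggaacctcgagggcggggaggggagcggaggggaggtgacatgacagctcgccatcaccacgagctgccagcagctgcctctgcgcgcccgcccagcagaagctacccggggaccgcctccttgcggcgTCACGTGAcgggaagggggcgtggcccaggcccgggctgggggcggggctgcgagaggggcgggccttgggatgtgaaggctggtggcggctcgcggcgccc
Osbpl5, chr7:143757009-143757258, minus strand: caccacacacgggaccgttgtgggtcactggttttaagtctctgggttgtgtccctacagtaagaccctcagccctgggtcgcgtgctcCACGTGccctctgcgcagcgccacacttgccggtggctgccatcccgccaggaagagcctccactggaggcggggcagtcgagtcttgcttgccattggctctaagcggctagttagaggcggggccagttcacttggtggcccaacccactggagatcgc
Stard8, chrX:99042331-99042580, plus strand: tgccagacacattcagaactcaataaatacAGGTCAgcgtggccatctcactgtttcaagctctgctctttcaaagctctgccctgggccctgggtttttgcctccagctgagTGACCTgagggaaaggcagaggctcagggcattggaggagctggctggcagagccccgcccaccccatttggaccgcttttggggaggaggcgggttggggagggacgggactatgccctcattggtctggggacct
Scarb2, chr5:92505658-92505907, minus strand: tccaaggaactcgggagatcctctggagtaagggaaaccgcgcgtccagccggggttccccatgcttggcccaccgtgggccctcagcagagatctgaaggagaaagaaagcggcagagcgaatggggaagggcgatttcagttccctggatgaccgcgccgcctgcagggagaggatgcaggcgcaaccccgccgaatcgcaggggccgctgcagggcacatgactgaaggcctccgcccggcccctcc
The capitals in Osbpl8 are the palindrome TCACGTGA, the core of the CLEAR element recognised by TFEB, a regulator of lysosomal genes. It begins 102 bases before the start and occurs in 0.785% of 32851 promoter windows of that length, and in 1 of the 36 member windows. It contains the E-box CACGTG, which occurs in 6.02% of all windows and in 6 of the 36 member windows. Those 6 belong to Osbpl8, Osbpl5, Gramd1c and Gramd4, and the match in Osbpl5 begins 161 bases before that start. The Gramd4 windows with the E-box overlap and share the same match, so it is counted in each. The capitals in Stard8 are the hexamer AGGTCA, the unit of LXR response elements, once on each strand. Windows with AGGTCA on either strand made up 14.0% of all and 4 of the 36 member windows, 1 each of Stard8, Stard13, Osbpl2 and Npc1l1. The spaced repeat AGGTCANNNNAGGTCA, searched on both strands, was in 0 member windows and in 0.0152% of all windows. Its shorter form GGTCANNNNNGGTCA was in 0 member windows and in 0.0639% of all. The sterol response element TCACNCCAC, searched on both strands, was in 1 member window, that of Stard3, and in 1.05% of all windows. A match describes letters and not a site in use, and a missing match speaks only for these windows.

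Partner genes of the same transport routes were read from 6 lists with 57 rows, of which 47 were measured. At 1.5-fold 1 was higher, as deposited and after centring, and 0 were lower. Of all measured rows 3.46% were higher as deposited and 1.38% after centring, so 1 of 47 is near the background. The higher gene was Pitpnc1, a phosphatidylinositol transfer protein, with 11.2 FPKM in GW3965 and 4.55 FPKM in DMSO, a ratio of 2.45 (2.35 to 2.56). In the same list Gltp, the glycolipid transfer protein, had 77.4 FPKM in GW3965 and 77.9 FPKM in DMSO. The 9 measured genes of that list of other lipid transfer proteins had a median centred log2 ratio of -0.04.

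None of the 16 measured tethers and contact site proteins passed the limit, and their median centred log2 ratio was 0.07. Mospd2, a VAP-related anchor of the ER, had 7.74 FPKM in GW3965 and 5.18 FPKM in DMSO, a ratio of 1.49 (1.44 to 1.55). Its relative Mospd3 had 2.61 FPKM in GW3965 and 3.27 FPKM in DMSO, a ratio of 0.797 (0.699 to 0.909). At -0.49 its centred log2 ratio was the lowest of the measured genes in the 6 lists. Col4a3bp, the ceramide transfer protein with a START domain, had 26.8 FPKM in GW3965 and 18.4 FPKM in DMSO, a ratio of 1.46 (1.43 to 1.49). In the same list Acot11 had a ratio of 1.13 (1.05 to 1.22).

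Enzymes of the phosphoinositides that ORPs exchange had 6 measured genes, a median centred log2 ratio of 0.10 and 0 past the limit. Pi4k2a, a kinase that makes phosphatidylinositol 4-phosphate, had 64.2 FPKM in GW3965 and 46.2 FPKM in DMSO. Sacm1l, the ER phosphatase that consumes it, had 14.0 FPKM in GW3965 and 10.4 FPKM in DMSO. All 10 late endosome and lysosome partners were measured, with a median of -0.02 and 0 past the limit. Cd63, a late endosomal tetraspanin, had 138 FPKM in GW3965 and 134 FPKM in DMSO. Rilp, which links RAB7 to dynein, had 1.69 FPKM in GW3965 and 1.75 FPKM in DMSO. Of 6 genes of mitochondrial sterol use 3 were measured, with a median of -0.15. Cyp27a1, the mitochondrial sterol 27-hydroxylase, had 3.47 FPKM in GW3965 and 3.38 FPKM in DMSO, and the electron carrier Fdx1 had 5.28 FPKM in GW3965 and 4.87 FPKM in DMSO.

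**Figure D5:**
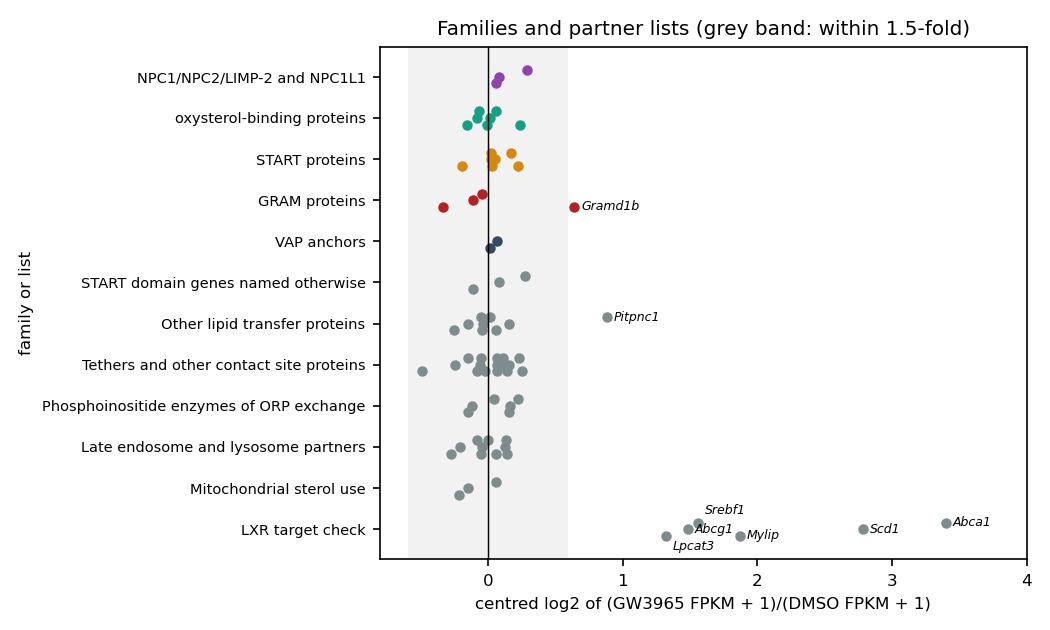
Centred log2 ratio of every measured gene (1 point each) in the 5 member groups and the lists of partner genes, with the LXR targets at the bottom, and a grey band for values within 1.5-fold. Outside the band are Gramd1b, Pitpnc1 and all 6 LXR targets.

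Markers of other cell types were also read in both libraries. The mesothelial and fibroblast markers, 3 of 6 measured, summed to 17.0 FPKM in GW3965 and 10.8 FPKM in DMSO, with Dcn at 11.6 FPKM in GW3965 and 6.91 FPKM in DMSO. B cell markers, 2 of 4 measured, summed to 3.94 FPKM in GW3965 and 2.67 FPKM in DMSO, and the 4 T cell markers to 0.474 FPKM in GW3965 and 0.243 FPKM in DMSO. Neutrophil markers, 1 of 3 measured, summed to 3.89 FPKM in GW3965 and 3.47 FPKM in DMSO. Of these markers Dcn was past the limit as deposited, and 0 were past it after centring. No marker of these lists was at 0 in either library. Their part in the Gramd1b difference was not tested, and in bulk RNA fewer cells of a type and less RNA per cell cannot be told apart. The 4 steroid-making cell markers and the 4 enterocyte markers summed to at most 0.342 FPKM in either library. Olfactory receptor rows, which are silent in macrophages, had a median of 0.0690 FPKM in GW3965 and 0.0261 FPKM in DMSO over 1083 rows, a difference of 0.0429 FPKM. The Gramd1b difference was 9.34 FPKM. The 5 members at or below 0.171 FPKM in both libraries, Gramd2, Gramd1c, Osbpl10, Npc1l1 and Osbpl6, had FPKM ratios from 1.28 for Osbpl6 to 2.3 for Gramd2, beside 2.64 for the olfactory medians.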

How the data were processed

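The authors deposited 1 table of FPKM values with 1 column per library. Per the submitters' processing notes, STAR 2.3.0, HTSeq 0.5.4p3 and the build mm10 (GRCm38) were used, with no role or order. No source used here gives the annotation, strand setting or filters. Without a stated strand, reads of overlapping antisense genes cannot be told apart. Exons of Stard5 overlap Il16 in 22% of their bases, those of Stard9 overlap Cdan1 in 10.0% and those of Osbpl9 overlap Nrd1 in 9.04% (GENCODE M21). Those of Osbpl1a overlap AC102055.1 in 11.0% and those of Gramd1a overlap G630030J09Rik in 8.02%. Those of Stard6 overlap 4930503L19Rik in 2.94%, a gene at 11.1 FPKM in GW3965 and 8.71 FPKM in DMSO.

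Whole reads were recovered from the FPKM steps. There were 29845 rows below 0.3 FPKM in DMSO and above 0 in both libraries. A depth factor of 1.35 made 96.4% of them whole-number ratios (denominators up to 60, within rounding), against 5.69% with the factor moved by 1%. Gene lengths were reduced by 99 bases, which put 175 of 14079 rows at the commonest depth, against 47 with 100 bases. Of 400 rows above 20 FPKM in both libraries and below 100 FPKM in DMSO, 98.3% gave whole reads in both at some whole length. At the next pair of depths 64.5% did. The depths were chosen for the highest such share, so it is no separate check of them. The pairs tried lay near a depth taken from annotated lengths and the reduction. All 33 members had a solution. It fixes the ratio, and the reads up to a whole multiple, taken as that nearest the GENCODE M21 length. For Osbpl2, Stard4, Gramd1c and Gramd3 another multiple was almost as near. Intervals are exact conditional (Clopper-Pearson) 95% intervals, except those of ratios of ratios, which use a normal approximation on the log scale, and cover counting error only. The recovery was also run on simulated data. These were made with the same FPKM formula and reduction, so they cannot test whether both hold for the authors' values.

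Members and lists were chosen with earlier results of these data known. All members are named, and from each partner list the 2 measured genes with the largest absolute centred log2 ratio. RefSeq synonyms served to find listed symbols, and 1 of 58 partner entries (Pitpnm1) was not matched. Protein motifs were not searched. The promoter letters of the CLEAR and sterol elements were shortened after a search with longer forms. Alternatives were pseudocounts of 0.1 and 0.5, no filter, a mean of at least 5 FPKM, centring, the same upper quartile or sum of FPKM, leaving out NONCODE rows and a 2-fold limit. The tools were matplotlib 3.10.9, scipy 1.17.1, pandas 2.3.3, numpy 2.4.6 and Python 3.11.15.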

Additional observations from a re-analysis of the deposited data

How the results depend on the processing

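No paired analysis was possible because GW3965 and DMSO have 1 library apiece. Among measured members the count higher in GW3965 was 1, and 0 at a 2-fold limit. With the same sum of FPKM 6 of 23 were higher, as Npc1, Scarb2, Osbpl8, Stard7 and Stard8 joined Gramd1b. At that setting 2604 of all 11889 measured rows were higher too, so the 6 are not a result about the group. The count lower was 0 under all 9 alternatives. The members' median log2 ratio of 0.27 was 0.0243 centred, 0.0131 at equal upper quartiles, 0.50 at equal sums and 0.0345 centred without NONCODE rows. The sign of many members rests on the scaling and, for low genes, on the added 1. Of the 33, 2 were negative as deposited, 17 after centring and 11 at equal upper quartiles. At equal sums 0 were, and Gramd4 and Stard6 are positive too. Among the 17 were the unmeasured Gramd2, Gramd1c, Osbpl10, Stard13, Stard10, Npc1l1 and Osbpl6. Their FPKM ratios, from few reads, lay above the median ratio of all measured rows. Of the 47 measured partner genes 15 were higher with the same sum, against 1, beside those 2604 of 11889 rows. Of all rows, 411 were higher, against 1024 with a pseudocount of 0.1, 224 at a mean of at least 5 FPKM, 164 centred, 166 at equal upper quartiles, 2604 at equal sums, 124 centred without NONCODE rows and 117 at 2-fold. The 9 lower rows became 20, 5, 40, 35, 1, 21 and 0 under those settings in that order, 14 with 0.5 as pseudocount and 17 unfiltered. The share of higher rows among those past the limit was 97.9% as deposited, 80.4% centred and 82.6% at equal upper quartiles. Of 231 single member values 222 stayed on their side of the limit and 9 went past it. The sign differed from that as deposited in 40, under centring or an equal upper quartile or sum, and Gramd1b was positive and past 1.5-fold under each of these scalings. Besides the 5 genes above, those that went past the limit were Osbpl5 with a pseudocount of 0.1 (0.60) or nothing added (0.69), and Gramd1c (0.97) and Gramd2 (1.2) with nothing added. Scaling and limit settings move values by construction, and the cause of the other changes was not tested. Depth limits low members, since a single read on 1 kb of gene adds 0.0147 FPKM in GW3965 and 0.0109 FPKM in DMSO.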
